A study of Rattus norvegicus with 60 samples.

Results

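The comparison described here is the response of the rat spinal cord to contusion when every animal received methylprednisolone (MP), a synthetic glucocorticoid given after spinal cord injury (SCI). Its 28 arrays are those of the injured rats (SCI-MP) and of the sham-operated rats (S-MP) taken at 7 times after medication (2, 4, 6 and 8 h, then 12, 24 and finally 48 h), with 14 arrays a side and 2 rats per group and time, out of 60 arrays in the series. They were chosen by the injury, medication and time in the sample labels. All were female Long Evans rats of 8 to 9 weeks. SCI-MP rats had a contusion of the cord and S-MP rats a sham operation, and both received MP at 30 mg/kg dissolved in 70% ethanol, so that any action of MP, of the ethanol or of anaesthesia that was the same in injured and sham rats does not appear in the difference. Another 28 arrays of the same times came from injured (SCI-EtOH) and sham-operated (S-EtOH) rats given the 70% ethanol alone, called vehicle below, and served only to ask where the injury difference with MP differed from that without it. RNA came from 5 mm of cord at the lesion, 1 rat per array, so every value is a mixture of all cells present, infiltrating blood cells included.

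Contusion tears vessels and axons and sets off an inflammatory programme in which glia and vessel cells release chemokines, neutrophils enter before macrophages, and neurons near the lesion die or lose their processes. Glucocorticoids bind the glucocorticoid receptor, which induces genes such as Fkbp5 and Dusp1 and restrains NF-kappaB and AP-1, the transcription factors that drive many cytokine genes. Comparing injured with sham rats under the same drug asks which parts of the injury response are present in cord exposed to the steroid.

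Values are log2 expression values that the authors centred near 0 for each probe set, so they show differences between arrays and no level of one gene against another. For the same reason the presence of a cell type could not be checked from its markers, and only the differences of the markers are given. The correlation of the 2 rats of a group and time over 14324 genes lay between 0.538 and 0.923 in SCI-MP and between 0.345 and 0.664 in S-MP, so the rats of a pair did not share 1 set of values.

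Over the 7 times together, 2960 of 14324 genes (20.7%) were higher and 4591 (32.1%) lower in SCI-MP (limma with time as a covariate, Benjamini-Hochberg adjusted p under 0.05), and the median difference of all genes was 0.0037 on the log2 scale. A difference of 2-fold or more was called for 179 genes higher (1.25%) and 332 lower (2.32%). After quantile normalization the higher ones made up 47.3% of the 2-fold calls in place of 35.0%. In 45 genes (0.314%) all 14 SCI-MP arrays lay above all 14 S-MP arrays, and in 734 genes (5.12%) all lay below. The 734 had a median difference of −0.80, and 239 of them passed 2-fold. The 45 had a median difference of 1.07, and 28 passed 2-fold. Of the 511 genes called at 2-fold, 156 higher and 328 lower ones had the same sign at all 7 times.

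The number of genes called grew after the earliest time and was lower at 8 h than at 6 or 12 h. At 2 h, 24 genes were higher (0.168%) and 61 lower (0.426%). At 4 h, 367 were higher (2.56%) and 1964 lower (13.7%), a split of 15.7% higher that became 31.1% after quantile normalization. At 6 h, 1586 were higher (11.1%) and 3448 lower (24.1%). At 8 h, 648 were higher (4.52%) and 1543 lower (10.8%). At 12 h, 1876 were higher (13.1%) and 3104 lower (21.7%). At 24 h, 1598 were higher (11.2%) and 2186 lower (15.3%). At 48 h, 2041 were higher (14.2%) and 2626 lower (18.3%). These counts rested in part on single rats. At 2 h the 85 calls became 8 without SCI-MP 2 h replicate 2, 16 without S-MP 2 h replicate 1, 263 without either SCI-MP 24 h rat and 135 without either SCI-MP 48 h rat, whose spread enters the shared error. At 4 h the 2331 calls became 289 without SCI-MP replicate 1, 765 without S-MP replicate 1 and 1091 without S-MP replicate 2. At 6 h the 5034 became 2741 without SCI-MP replicate 2 and 2843 without S-MP replicate 2. At 8 h the 2191 became 690 and 1294 without SCI-MP replicates 2 and 1, and 704 and 1271 without S-MP replicates 1 and 2. At 24 h the 3784 became 2319 without SCI-MP replicate 1 and 2437 without S-MP replicate 2, and at 48 h the 4667 became 3096 without S-MP replicate 1. Single rats did not move the count at 12 h or over all times by 1.5 times.

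**Figure D1:**
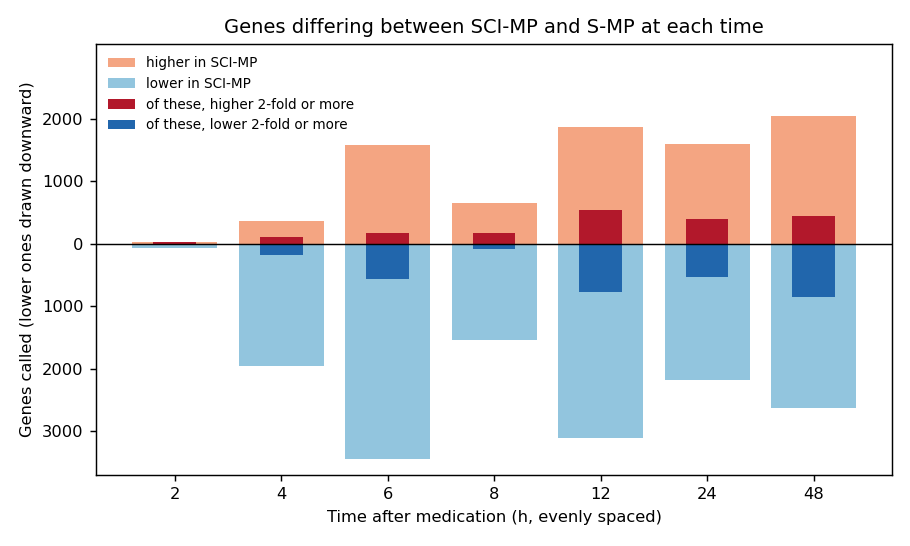
Number of genes (vertical axis, lower ones drawn downward) called between SCI-MP and S-MP at each time after medication (horizontal axis, h, evenly spaced), with 2 rats per group and time. Pale bars are all genes past an adjusted p of 0.05 and dark bars those of 2-fold or more. At 12 h, 541 genes were higher and 776 lower by 2-fold, against 21 and 3 at 2 h.

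The largest rises were in secreted signals of inflammation. Cxcl2, a chemokine that attracts neutrophils through Cxcr2, lay between 0.0040 and 3.55 (median 2.71) in SCI-MP and between −1.28 and −0.25 (median −0.87) in S-MP, and its difference was 3.24 ± 0.24 on the log2 scale (SE, 14 arrays a side, adjusted p = 6.4e-10 by limma). Cxcl1, which acts on the same receptor, ran from −0.25 to 2.44 (median 2.18) in SCI-MP and from −1.69 to 0.10 (median −0.998) in S-MP, a difference of 2.56 ± 0.18. Ccl3 and Ccl2, which recruit monocytes, rose by 3.03 ± 0.27 and 2.61 ± 0.20. The Cxcl2 arrays did not overlap between the groups, while in Cxcl1, Ccl3 and Ccl2 the lowest SCI-MP array fell within the sham range. The cytokine Il6 rose by 2.47 ± 0.29, with differences of 0.84 at 2 h, 4.59 at 12 h and 0.78 at 48 h, of which the first and last missed the threshold.

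Other leading rises came from a protease inhibitor, a steroid-linked mediator, a receptor and a haem enzyme. Tfpi2, an inhibitor of serine proteases in the matrix, rose by 2.88 ± 0.28. Anxa1, an annexin that is itself induced by glucocorticoids and limits leukocyte entry, lay between 0.49 and 2.72 (median 1.99) in SCI-MP and between −1.41 and −0.12 (median −0.68) in S-MP, without overlap, and rose by 2.64 ± 0.15. Gprc5a, an orphan receptor, rose by 2.62 ± 0.21, and Alas2, the erythroid enzyme for the initial step of haem synthesis, by 2.56 ± 0.24. Atf3, a transcription factor of stressed and axotomized neurons, had the smallest adjusted p of the 10 (6.9e-13): its 14 SCI-MP arrays lay between 0.69 and 2.03 (median 1.46) and its 14 S-MP arrays between −1.50 and −0.43 (median −0.97), at a difference of 2.39 ± 0.11.

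The 250 bases before the start of each gene, from RefSeq (GRCr8), were searched on both strands for 3 short patterns, as NF-kappaB and AP-1 are the factors that glucocorticoids restrain. Of the 14324 genes, 11823 matched this table by symbol. A kappaB pattern, GGANTTTCC with N for any base, stood in 1.06% of all 27457 windows, in 1.23% of those of the measured genes, in 12 of 138 (8.7%) of the genes that rose 2-fold or more and in 2 of 271 (0.738%) of those that fell 2-fold or more. An AP-1 pattern, TGANTCA, stood in 6.36% of all windows, in 5.49% of those of the measured genes, in 21 of 138 (15.2%) of the risen genes and in 11 of 271 (4.06%) of the fallen ones. The cyclic AMP response element TGACGTCA stood in 1.7% of all windows, 2.27% of those of the measured genes, 8 of 138 (5.8%) of the risen and 8 of 271 (2.95%) of the fallen genes. The last pattern does not match the AP-1 letters. These shares are descriptions of letters in a window and were not tested. Only these letters were searched, so a window without a match, such as that of Cxcl2, may still hold another form of a site. Among the 10 largest rises, 6 matched the table, and 4 of the 6 windows held the kappaB pattern, against 0 of 6 among the 10 largest falls. These 4 windows are shown because they hold it, with every match to one of the 3 patterns in capitals, each 5′ to 3′ on the gene's own strand, which is the minus strand in all 4: Cxcl1 at chr14:17479322-17479571, Il6 at chr4:5894576-5894825, Tfpi2 at chr4:32941277-32941526 and Anxa1 at chr1:227303733-227303982.
Cxcl1: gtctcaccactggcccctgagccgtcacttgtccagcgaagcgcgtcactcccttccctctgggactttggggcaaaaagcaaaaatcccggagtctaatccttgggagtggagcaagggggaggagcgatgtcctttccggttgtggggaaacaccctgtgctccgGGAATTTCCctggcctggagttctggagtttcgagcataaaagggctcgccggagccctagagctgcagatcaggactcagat
Il6: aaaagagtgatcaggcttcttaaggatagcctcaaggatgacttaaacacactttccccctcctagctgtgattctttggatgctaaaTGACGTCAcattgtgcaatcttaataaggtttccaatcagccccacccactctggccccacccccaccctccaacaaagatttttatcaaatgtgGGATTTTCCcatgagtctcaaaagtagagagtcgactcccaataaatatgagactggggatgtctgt
Tfpi2: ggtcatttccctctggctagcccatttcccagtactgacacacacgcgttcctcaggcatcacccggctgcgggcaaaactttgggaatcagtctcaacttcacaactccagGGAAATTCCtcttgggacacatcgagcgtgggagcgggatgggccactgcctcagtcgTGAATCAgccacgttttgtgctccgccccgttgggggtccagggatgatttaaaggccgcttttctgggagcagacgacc
Anxa1: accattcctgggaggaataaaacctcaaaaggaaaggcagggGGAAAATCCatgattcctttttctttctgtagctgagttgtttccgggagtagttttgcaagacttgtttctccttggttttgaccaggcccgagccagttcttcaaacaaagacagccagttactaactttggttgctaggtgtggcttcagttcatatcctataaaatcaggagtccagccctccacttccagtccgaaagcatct
Cxcl1 carries the kappaB letters near its start, and Il6 carries them together with a cyclic AMP response element. In Tfpi2 they stand on the opposite strand, with an AP-1 match. In Anxa1 they stand far upstream, also on the opposite strand.

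**Figure D2:**
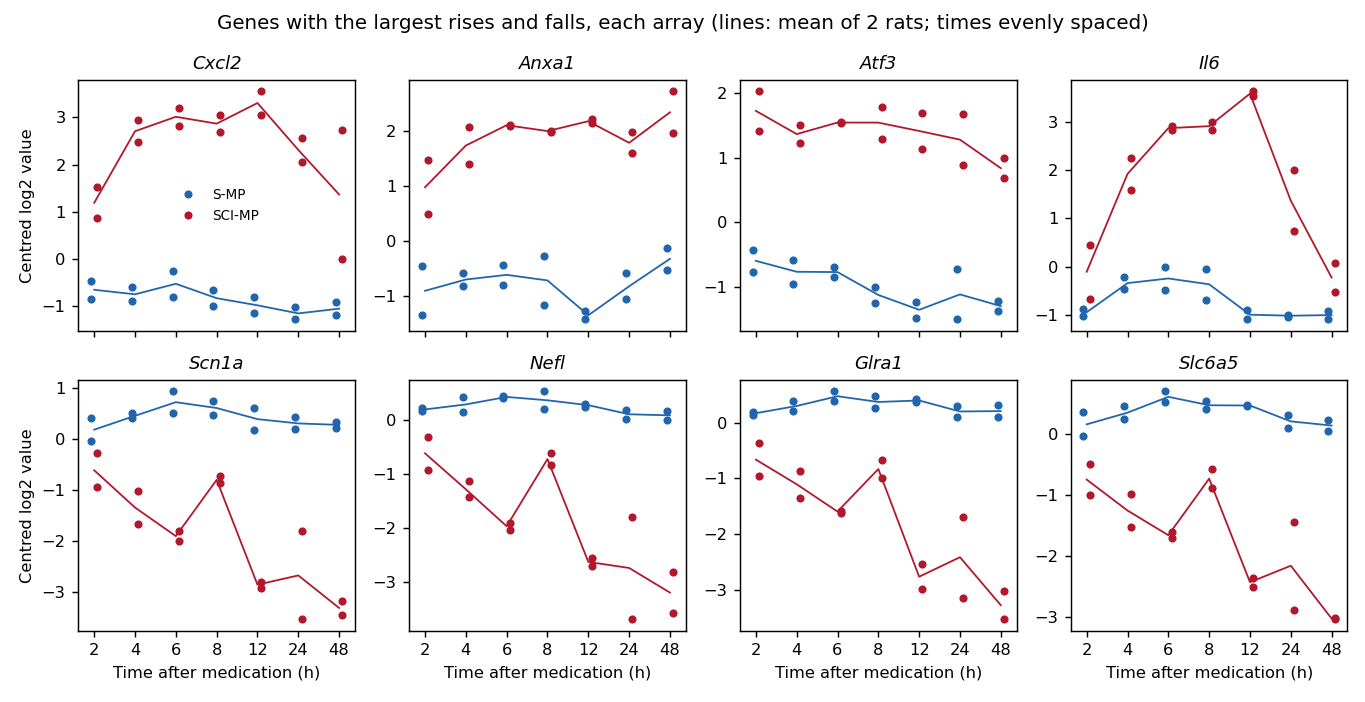
Centred log2 value (vertical axis) of 8 genes in each of the 28 arrays against time after medication (horizontal axis, h, evenly spaced), with 1 point per rat and lines through the mean of 2 rats. Cxcl2, Anxa1, Atf3 and Il6 lie higher in SCI-MP and Scn1a, Nefl, Glra1 and Slc6a5 lower, with the differences of the last 4 largest in size at 48 h.

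Chemokines rose as a group: 15 of the 20 measured were higher and 1 lower, at a median difference of 0.96. Counts here and in the next paragraph stand against 20.7% of all genes higher and 32.1% lower. Averaged over the 20 genes, the SCI-MP arrays lay between −0.16 and 1.18 and the S-MP arrays between −0.71 and −0.29. The chemokine that fell was Cx3cl1, fractalkine, which neurons make as a signal to microglia, at −0.68 (adjusted p = 2.7e-05). Of 21 cytokines, receptors and decoys, 20 were higher and 1 lower (median 0.83), and the list held both agonists and their inhibitors: Il1r2, a decoy that traps interleukin-1, rose by 1.95 ± 0.30, Lif, an injury-induced cytokine of the interleukin-6 family, by 1.78 ± 0.26, and Il11 of the same family by 1.41 ± 0.21. The gene that fell was Lifr, the receptor for Lif, at −0.95 (adjusted p = 5.8e-09).

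Enzymes that make prostaglandins and nitric oxide rose in 8 of 10 (median 1.05), with Ptgs2, the inducible cyclooxygenase, at 1.94 ± 0.17, Ptges, the microsomal prostaglandin E synthase, at 1.48 ± 0.18 and Nos2, the inducible nitric oxide synthase, at 1.28 ± 0.22. Ptgs2 was 1.56 higher at 2 h already, whereas Nos2 stood at −0.14 at 2 h and 2.65 at 12 h. Adhesion molecules rose in 7 of 10, by less (median 0.27), led by Icam1, which holds leukocytes on the vessel wall, at 0.87 ± 0.09.

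Immediate early and stress transcription factors had more members called at 2 h than any other of the 50 lists. All 18 measured members were higher (median 1.20) and 10 were higher 2-fold or more, against 20.7% and 1.25% of all genes. In 9 of the 18 all SCI-MP arrays lay above all S-MP arrays, against 0.314% of all genes. At 2 h 8 of the 18 were called, against 0.168% of all genes. Fos, a subunit of AP-1, lay between 0.47 and 2.05 (median 1.71) in SCI-MP and between −1.29 and −0.34 (median −0.64) in S-MP, with differences of 2.54 at 2 h and 1.71 at 48 h. Junb, its partner, was 2.12 higher at 2 h and 1.79 ± 0.09 higher over all times, and Egr1, a zinc finger factor, 1.80 and 2.03 ± 0.14. Their difference was thus present at the earliest and at the latest time, without overlap of the 14 arrays in either group. The list's median lay between 0.89 at 2 h and 1.51 at 12 h. At 2 h the calls of Anxa1 (1.88) and Egr1 were lost without single arrays (highest adjusted p = 0.33 and 0.17 by limma), and the largest falls of that time, Lfng, Tmem179, Steap2, Limk1 and Atp13a2 at −1.09 to −0.89, were each lost too.

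Inhibitors that these pathways induce against themselves were also higher in SCI-MP than in S-MP. All 9 measured NF-kappaB feedback genes, against 20.7% of all genes, were higher (median 0.64). Among them was Nfkbia, the inhibitor that holds NF-kappaB in the cytosol and a known glucocorticoid target, at 1.47 ± 0.18. Its difference was 0.43 at 2 h and 2.50 at 12 h. Between these times the mean of 2 rats went from 0.02 to −1.77 in S-MP and from 0.45 to 0.73 in SCI-MP. Zc3h12a, an RNase that degrades cytokine transcripts, rose by 0.95 ± 0.09. Of 13 STAT3 feedback and acute phase genes 8 were higher and 1 lower (median 0.38): Socs3, the inhibitor induced by interleukin-6 signalling, rose by 1.56 ± 0.13 with no overlap of arrays, and Timp1, an inhibitor of metalloproteinases, by 1.32 ± 0.17.

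Neutrophil markers were called mostly from 12 h on. Of 17 neutrophil markers 15 were higher (median 0.66), against 20.7% of all genes. The list's median was 0.05 at 2 h, 1.98 at 12 h and 0.51 at 48 h. Cxcr2, the neutrophil receptor for Cxcl1 and Cxcl2, lay between −0.58 and 4.06 (median 1.48) in SCI-MP and between −0.48 and 0.53 (median −0.41) in S-MP, and its difference went from 0.02 at 2 h through 4.29 at 12 h to 0.85 at 48 h. S100a9, a calcium-binding protein of neutrophil cytosol, rose by 1.41 ± 0.21, Clec4d, a lectin receptor, by 1.70 ± 0.29 and Trem1, an amplifier of neutrophil activation, by 1.30 ± 0.19. The others were Mpo, a granule enzyme made in marrow precursors, at 0.10 (adjusted p = 0.088), and Lcn2, a siderophore-binding protein, at 0.18 (adjusted p = 0.62), and both are named, like each exception of a list below, after their values were seen. In whole cord, more cells of a type and more RNA per cell cannot be told apart, nor can fewer cells and less RNA per cell.

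Macrophage and phagocyte markers were higher in 7 of 15 and lower in 1, the lipid carrier Apoe at −0.36 (median 0.42), against 20.7% and 32.1% of all genes. The list's median stood at 0.96, 0.97 and 0.90 at 12, 24 and 48 h after −0.20 at 8 h. Cd14, the co-receptor for bacterial lipid, rose by 1.50 ± 0.16, and Cd68, a lysosomal protein of phagocytes, by 0.66 ± 0.18 with 1.75 at 48 h. Of 11 homeostatic microglia markers 0 were higher and 4 lower over all times (median −0.25), a share near the 32.1% of all genes. The median of the 11 was 0.31 at 6 h and −0.81 at 48 h, when 8 of 11 were lower, against 18.3% of all genes. The 4 over all times included Sall1, a transcription factor of microglial identity, at −0.48 ± 0.12, and Csf1r, the receptor for their survival factor, at −0.25 ± 0.10. The call of Csf1r was lost after quantile normalization (adjusted p = 0.13) and with 16 of 28 single arrays left out, and the list's count of 4 became 2 in 11 of those 28 fits: without S-MP 8 h replicate 2, S-MP 12 h replicate 2, either S-MP 24 h rat, S-MP 48 h replicate 1, replicate 2 of SCI-MP at 2, 8 or 12 h, either SCI-MP 24 h rat or SCI-MP 48 h replicate 1.

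Smaller differences were seen in lymphoid and antigen-presenting genes. The counts of this paragraph stand against 20.7% of all genes higher and 32.1% lower. Of 14 lymphocyte markers 8 were higher (median 0.14), of 8 class II genes 5 (median 0.20) and of 10 complement genes 5 (median 0.28), with Cd55, which dismantles the complement convertases, at 2.10 ± 0.22. The class II count became 3 in 8 of 28 fits without 1 array, with the calls of RT1-DMa and RT1-Ba both lost: without any of the 4 rats of 6 h, replicate 1 of either group at 12 h, SCI-MP 2 h replicate 2 or SCI-MP 24 h replicate 1. Of 19 interferon response genes 11 were higher and 1 lower (median 0.32), led by Oasl at 1.27 ± 0.15, and of 11 pattern recognition receptors and adaptors 8 were higher and 1, Tlr3, lower at −0.17, a call lost in 15 of 28 fits without 1 array (median 0.20). Blood cell markers were higher as well. Of 16 haem, iron and red cell genes 10 were higher and 0 lower (median 0.38), their mean per array lay between −0.04 and 0.70 in SCI-MP and between −0.67 and −0.11 in S-MP, and Hbb, a beta-globin, rose by 2.19 ± 0.20. All 3 platelet markers measured were higher, Pf4 by 1.43 ± 0.16, and 5 of 7 Schwann cell and nerve root markers were higher (median 0.25). The part of blood and nerve root RNA in the differences of the other lists was not tested.

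The largest falls were in genes of neurons. Scn1a, a sodium channel of fast-firing neurons, lay between −3.55 and −0.28 (median −1.81) in SCI-MP and between −0.04 and 0.95 (median 0.42) in S-MP, without overlap, and fell by 2.36 ± 0.24 on the log2 scale (SE, adjusted p = 2.6e-08 by limma). Slc5a7, the choline transporter of cholinergic terminals, fell by 2.25 ± 0.24, and Htr2c, a serotonin receptor, by 2.21 ± 0.25. The neurofilament genes Nefm, Nefl and Nefh, which build the axonal skeleton, fell by 2.14 ± 0.29, 2.13 ± 0.23 and 2.00 ± 0.23. Nefl lay between −3.69 and −0.31 in SCI-MP against 0.01 to 0.54 in S-MP. Late minus early was negative in each of these 6 genes, though not steadily over time: Scn1a was at −0.80 at 2 h, which missed the threshold, −2.64 at 6 h, −1.41 at 8 h and −3.60 at 48 h, and Nefm at −3.31 at 24 h and −2.99 at 48 h.

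Lists of neuronal structure, transmission, channels and motor neurons were lower in most members. All 15 neuronal structure genes were lower (11 by 2-fold or more, median −1.19), and averaged over them the SCI-MP arrays lay between −2.06 and −0.11 and the S-MP arrays between 0.08 and 0.50. Of 21 synaptic vesicle genes 19 were lower and 0 higher (median −1.25), led by Syt2, the calcium sensor of fast release, and Sv2b, a vesicle glycoprotein, both at −2.11. All 18 glycine and GABA genes were lower (median −1.07), among them Glra1, the glycine receptor subunit of spinal inhibition, at −2.10 ± 0.22, and Slc6a5, the glycine transporter that loads inhibitory terminals, at −2.06 ± 0.19. All 17 glutamate receptor genes were lower (median −0.89), with Grin1, the obligate NMDA receptor subunit, at −1.57 ± 0.18. Of 19 sodium and potassium channel genes 18 were lower (median −0.93) and of 11 motor neuron genes 10 were lower and 1, the metalloproteinase Mmp9, which the neutrophil list also holds, higher (median −0.96), with Chodl, a marker of fast motor neurons, at −1.94 ± 0.19. These counts stand against 32.1% of all genes lower.

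At 2 h 0 members of these 6 neuronal lists were called, at medians from −0.60 in the structure genes to −0.26 in the glutamate receptors, against a median of −0.042 for all genes. At 4 h 9 of 15 structure genes, 12 of 21 vesicle genes and 13 of 18 glycine and GABA genes were lower, against 13.7% of all genes. Calls at 4 h rested in part on single rats, as given above, and these list counts were not repeated without them. The medians at 8 h (−0.70, −0.68 and −0.59) were nearer to 0 than those at 6 h (−1.46, −1.26 and −1.33) and at 12 h (−1.75, −1.88 and −1.55). A smaller difference at 8 h thus appeared both in the neuronal lists and in the macrophage list, and it was not tested as a difference between times.

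Ion and transmitter clearance genes of neurons and astrocytes fell too, with counts to be read against 20.7% of all genes higher and 32.1% lower. Of 13 water, chloride and potassium transport genes 9 were lower and 1 higher (median −0.41), and the largest fall was in Slc12a5, the neuronal chloride exporter that makes glycine and GABA inhibitory, at −1.87 ± 0.20, with −3.24 at 48 h. Of 11 astrocyte function genes 10 were lower (median −0.74): Slc7a10, a transporter of small neutral amino acids, fell by 1.53 ± 0.18 and Slc1a2, the main glutamate transporter of the cord, by 1.19 ± 0.16, the latter without overlap of arrays. Reactive astrocyte genes moved the opposite way, with 12 of 17 higher and 1, the intermediate filament Gfap, lower at −0.37 (median 0.93), including Emp1, a membrane protein, at 1.94 ± 0.13 and Osmr, the oncostatin M receptor, at 1.34 ± 0.17.

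Myelin genes were called lower mostly from 12 h on. Of 15, 11 were lower and 1, Mbp, higher at 0.21, over all times (median −0.39). The median of the 15 was −0.07 at 6 h and −0.95 at 48 h, when 13 of 15 were lower, against 18.3% of all genes. Mal, a myelin proteolipid, went from −0.37 at 6 h to −1.73 at 48 h. Of 10 oligodendrocyte precursor genes 4 were lower and 1 higher (median −0.07), against 32.1% and 20.7% of all genes. Gpr17, a receptor of committed precursors, fell by 1.07 ± 0.19, and Bcan, the proteoglycan brevican, by 1.03 ± 0.16.

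**Figure D3:**
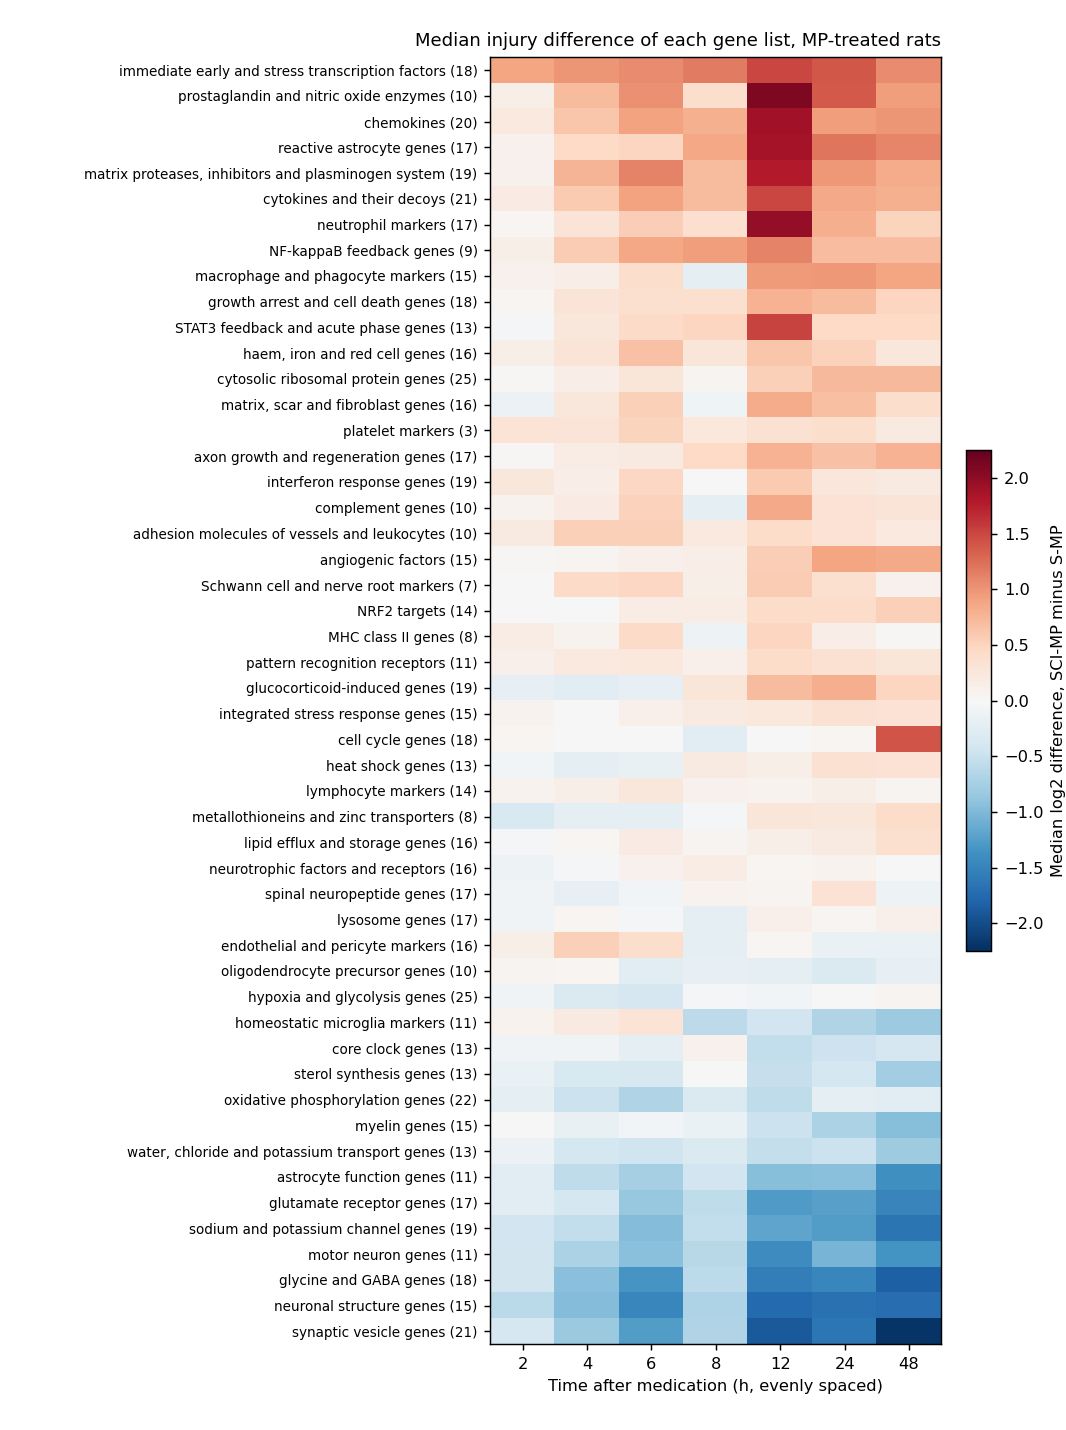
Median log2 difference between SCI-MP and S-MP (colour, red higher and blue lower in SCI-MP) of each of the 50 gene lists (rows, number of measured genes in brackets, ordered by the median over all times) at each time after medication (columns, h, evenly spaced). Synaptic vesicle genes reached −2.21 at 48 h, neutrophil markers 1.98 at 12 h, and cell cycle genes 1.42 at 48 h after medians between −0.25 and 0.04 before it.

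Vessel, matrix and repair genes had mixed directions, to be read against 20.7% of all genes higher and 32.1% lower. Of 19 proteases, inhibitors and plasminogen genes 15 were higher and 1 lower (median 0.90), with Plaur, the urokinase receptor, at 1.41 ± 0.14. Of 16 matrix, scar and fibroblast genes 9 were higher and 2 lower (median 0.34), with Lox, which cross-links collagen, at 1.02 ± 0.22 and Fn1, fibronectin, at 1.01 ± 0.16. Angiogenic factors were higher in 8 of 15 and lower in 2, led by Adm, adrenomedullin, at 2.06 ± 0.17, with all SCI-MP arrays (0.58 to 2.58) above all S-MP arrays (−0.92 to 0.04). Of 17 axon growth and regeneration genes 10 were higher and 3 lower (median 0.32), and of 16 neurotrophic factors and receptors 7 were higher and 6 lower (median 0.04). In the latter, Fgf9, a growth factor made by neurons, fell by 1.70 ± 0.18, and Ntrk2 and Ntrk3, the receptors for BDNF and neurotrophin-3, fell by 0.92 ± 0.11 and 0.81 ± 0.10.

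Energy metabolism and protein synthesis genes went in opposite directions. Of 22 oxidative phosphorylation genes 20 were lower and 1 higher (median −0.38), most at 6 h (median −0.68), with Ndufs1, a core subunit of complex I, at −0.88 ± 0.10 and Sdha, the flavoprotein of complex II, at −0.78 ± 0.06. Of 25 cytosolic ribosomal protein genes 21 were higher and 0 lower (median 0.37), with a median of 0.03 at 2 h and 0.73 at 24 and 48 h. Hypoxia and glycolysis genes were split, 8 higher and 11 lower of 25 (median −0.12), against 20.7% of all genes higher and 32.1% lower. Hk2, the inducible hexokinase, rose by 1.58 ± 0.14, while Eno2, the neuronal enolase, fell by 1.19 ± 0.09.

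Stress pathways were higher in part of their members, to be read against 20.7% of all genes higher and 32.1% lower. Of 18 growth arrest and cell death genes 17 were higher and 1 lower (median 0.41), with Gadd45b at 1.38 ± 0.11 and Pmaip1, which encodes the death promoter Noxa, at 1.20 ± 0.12. Of 15 integrated stress response genes 8 were higher and 3 lower (median 0.17). Ppp1r15a, which reverses the translational block, was at 1.28 ± 0.10 and Asns, asparagine synthetase, at −0.61 ± 0.07. Of 14 NRF2 targets 8 were higher and 1 lower (median 0.22), with Hmox1, the haem oxygenase, at 1.87 ± 0.24. Of 13 heat shock genes 5 were higher and 3 lower (median 0.16), with Cryab, a small heat shock protein, at 0.99 ± 0.14. The 5 became 3 without S-MP 4 h replicate 2 or SCI-MP 8 h replicate 1, a share near the 20.7% of all genes.

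The size of the injury difference changed with time for many genes. An F test of injury by time called 2471 genes (17.3%). The mean difference at 24 and 48 h minus that at 2, 4 and 6 h was positive in 2365 genes (16.5%) and negative in 1260 (8.8%), and of these 1460 had a negative mean difference early and a positive one late, and 337 the reverse. A change between early and late could lie in either group, so both are given for the leading genes.

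Gldn and Trh stayed near their 2 h value in sham rats and were higher late in injured ones. Gldn, gliomedin, a protein of peripheral nodes of Ranvier, was at −0.05 in SCI-MP at 2 h (mean of 2 rats), 2.91 at 12 h and 2.68 at 48 h, and at −0.19 and −0.14 in S-MP at 2 and 48 h. The late minus early difference of Gldn was 2.55. Trh, which encodes the peptide thyrotropin-releasing hormone, reached 2.83 in SCI-MP at 48 h against −0.16 in S-MP, and its late minus early difference was 2.41. Lilrb4, an inhibitory receptor of myeloid cells, changed by 2.49, with S-MP at −0.51 at 2 h and 0.56 at 48 h and SCI-MP at −0.28 and 3.14.

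Fkbp5 and Angpt2 changed through both groups. Fkbp5, a chaperone of the glucocorticoid receptor that the receptor itself induces, was at 0.58, 1.48 and 1.67 in S-MP at 2, 4 and 6 h and at −0.18, 0.20 and 0.63 in SCI-MP, and at 24 h it was at −0.82 in S-MP and 1.04 in SCI-MP. Its injury difference was thus −1.28 at 4 h, −1.04 at 6 h, 1.41 at 12 h and 1.86 at 24 h, and 0.17 ± 0.25 over all times (adjusted p = 0.60). Angpt2, a vessel-destabilizing ligand of the receptor Tie2, had an injury difference of −0.76 at 4 h and 1.92 at 48 h, as S-MP went from 0.69 to −0.20 and SCI-MP from −0.07 to 1.71. Of the 19 glucocorticoid-induced genes measured, 9 had a positive and 0 a negative late minus early change, against 16.5% and 8.8% of all genes. Their median injury difference went from −0.18, −0.23 and −0.19 at 2, 4 and 6 h to 0.70, 0.82 and 0.49 at 12, 24 and 48 h. Averaged over the 19 genes, the S-MP arrays lay between −0.87 and 0.54 (all times) and the SCI-MP arrays between −0.29 and 0.57. The part of each group in this change was not tested. Over all times 7 of the 19 were higher and 3 lower, against 20.7% and 32.1% of all genes. Dusp1, a phosphatase that inactivates MAP kinases, was at 1.78 ± 0.18. Its mean of 2 rats went from 0.33 at 2 h to −1.40 at 12 h in S-MP and from 1.47 to 1.61 in SCI-MP. Nr3c1, the glucocorticoid receptor itself, was at −0.03 (adjusted p = 0.70).

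The 5 largest negative changes were in Slco1c1, Slco1a4, Rgs5, Itm2a and the oligodendrocyte precursor receptor Gpr17 (−1.865). Slco1c1, the thyroxine transporter of brain endothelium, had an injury difference of 0.77 at 4 h, −1.22 at 8 h and −2.45 at 48 h, and its late minus early difference was −2.96. Slco1a4, another organic anion transporter of these vessels, changed by −2.55, Rgs5, a pericyte marker, by −2.03 and Itm2a, a membrane protein, by −1.91. In Rgs5 the injury difference was 0.89 at 6 h and −1.58 at 48 h. Between 4 and 48 h the S-MP mean of 2 rats went from −0.68 to 0.34 in Slco1c1 and from −0.49 to 0.34 in Slco1a4. The SCI-MP mean went from 0.10 to −2.11 and from 0.28 to −1.41. In Rgs5, Itm2a and Gpr17 S-MP went from −0.15 to 0.11, −0.29 to 0.14 and 0.12 to −0.105. SCI-MP went from 0.62 to −1.46, 0.07 to −1.20 and 0.03 to −2.29 in the same genes. Of the 16 endothelial and pericyte markers, 1 had a positive and 8 a negative late minus early change, against 16.5% and 8.8% of all genes. Over all times 5 of the 16 were higher and 3 lower (median −0.06), against 20.7% and 32.1% of all genes. The general endothelial genes Cdh5 and Flt1 were among the higher ones, at 0.67 ± 0.09 and 0.74 ± 0.10. At 48 h 3 of the 16 were higher and 7 lower, against 14.2% and 18.3% of all genes.

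Cell cycle genes were called mostly at 48 h. Then 17 of 18 were higher (median 1.42), against 14.2% of all genes. At 24 h 2 of 18 were higher (median 0.04), a share near the 11.2% of all genes. Cdk1, the mitotic kinase, was at 1.36 and 2.71 in the 2 SCI-MP rats and at 0.60 and 0.63 in the 2 S-MP rats of 48 h. Mcm6, part of the replicative helicase, was at 1.83 and 2.64 against 0.38 and 0.60. All 4 injured values lay above the sham values of 48 h, and the 2 injured rats differed from each other by more than the sham rats did. At 24 h Mcm6 was at 1.86 and 0.46 in the SCI-MP rats and at 1.44 and 0.28 in the S-MP rats.

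**Figure D4:**
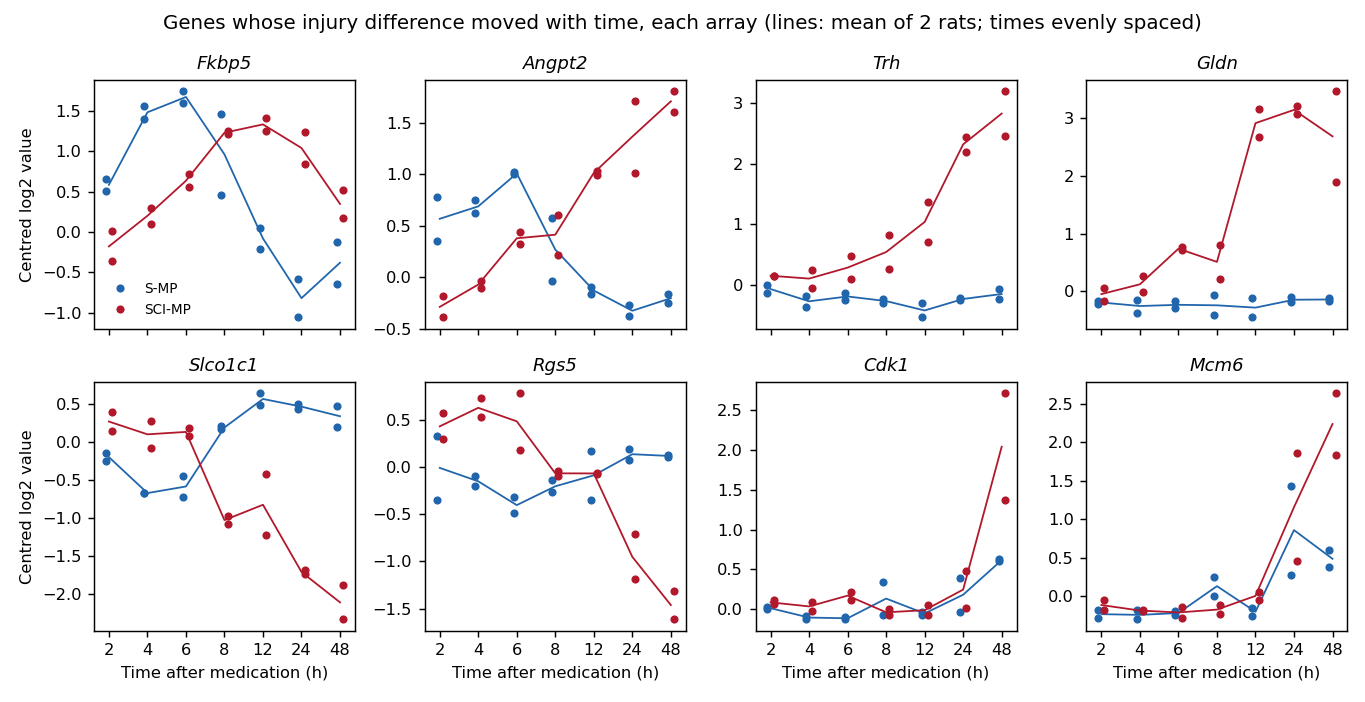
Centred log2 value (vertical axis, scale set per gene) of 8 genes in each of the 28 arrays against time after medication (horizontal axis, h, evenly spaced), with 1 point per rat and lines through the mean of 2 rats. The groups cross in Fkbp5, Angpt2, Slco1c1 and Rgs5, and only SCI-MP climbs in Trh and Gldn. Cdk1 stands highest in the SCI-MP rats of 48 h. Mcm6 has its highest mean there, with 1 SCI-MP rat of 24 h at 1.86.

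The injury difference with MP was set against that with vehicle, from SCI-EtOH and S-EtOH, which share no array with it. Across the 14324 genes, which are not independent of each other, the 2 differences had a Pearson correlation of 0.881. In a fit of all 56 arrays, 7777 genes were called with MP, 8850 with vehicle, and 5264 in both with the same sign, which is 67.7% of the first and 59.5% of the second. The difference between them was positive in 721 genes (5.03%) and negative in 2703 (18.9%), and the median over all genes was −0.064. Positive ones made up 21.1% of these calls, 31.5% after quantile normalization and 36.9% over all probe sets. Such a difference could lie in the injured or the sham rats of either medication, and the part of each was not tested.

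The largest positive differences included the chemokines Cxcl10 and Cxcl11. Over the whole chemokine list 3 of 20 differences between the medications were positive and 4 negative, and over the interferon response list 1 of 19 and 2. Of all genes 5.03% were positive and 18.9% negative, so the negative shares of both lists lay near or below that of all genes. Cxcl10, a ligand of the T cell receptor Cxcr3, rose by 1.60 ± 0.25 with MP against −0.08 with vehicle, a difference of 1.68 (adjusted p = 4.4e-05), and was 3.43 higher at 8 h. Cxcl11, a ligand of the same receptor, rose by 2.03 ± 0.16 against 0.83, a difference of 1.20. The other large positive ones were the beta-globin Hbb-b1 (1.24), Magoh, a subunit of the exon junction complex (1.01), Rgs1, a regulator of chemokine receptor signalling (0.99), and Adm (0.84). Hbb-b1 shares sequence with other beta-globins, and the related Hbb differed by 0.72, which missed the threshold.

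The largest negative differences between the medications were in Il1b and 4 more genes. Il1b, interleukin-1 beta, rose by 0.83 ± 0.12 with MP and by 2.18 with vehicle, a difference of −1.35 (adjusted p = 2.4e-06). Slc16a3, a lactate exporter, rose by 1.07 ± 0.16 against 2.23 (−1.15). Cybb, the membrane subunit of the phagocyte oxidase, was at 0.06 with MP, which missed the threshold, against 1.11 (−1.05), G0s2, an inhibitor of lipolysis, at 0.40 against 1.45 (−1.04) and Cxcr4, a chemokine receptor, at 0.36 against 1.38 (−1.02). In Il1b, Slc16a3, G0s2 and Cxcr4 the injury difference was thus smaller with MP but still called.

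Of the 17 neutrophil markers, 9 had a smaller rise with MP and 0 a larger one, against 18.9% of all genes. Clec4d differed by −1.01, Cxcr2 by −0.58, S100a9 by −0.53 and Trem1 by −0.49. Of the 10 prostaglandin and nitric oxide enzymes 3 differed and all were negative, among them Nos2 by −0.995, while Ptgs2 was at 1.94 with MP and 1.98 with vehicle (−0.04, which missed the threshold). Of the 21 synaptic vesicle genes 0 differed between the medications in either direction, and of the 15 neuronal structure genes 0 were positive and 1 negative, at medians of −0.05 and 0.03. For cytosolic ribosomal protein genes 2 were positive and 6 negative, and for oxidative phosphorylation genes 2 and 8, against 5.03% and 18.9% of all genes.

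The genes named for a change with time were also followed with vehicle. There, a comparison added after the data had been seen, the late minus early difference was 2.91 for Gldn, 3.28 for Trh, 1.83 for Angpt2, 1.56 for Fkbp5, −3.50 for Slco1c1 and −2.25 for Rgs5, and the difference from that with MP had adjusted p-values between 0.713 and 0.999 in the 10 genes, which does not show that the medications acted alike. Fkbp5 had an injury difference of −0.78 over 2 to 6 h with vehicle as well, while at those times MP raised it above vehicle in sham rats by 1.25 and in injured rats by 0.996.

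**Figure D5:**
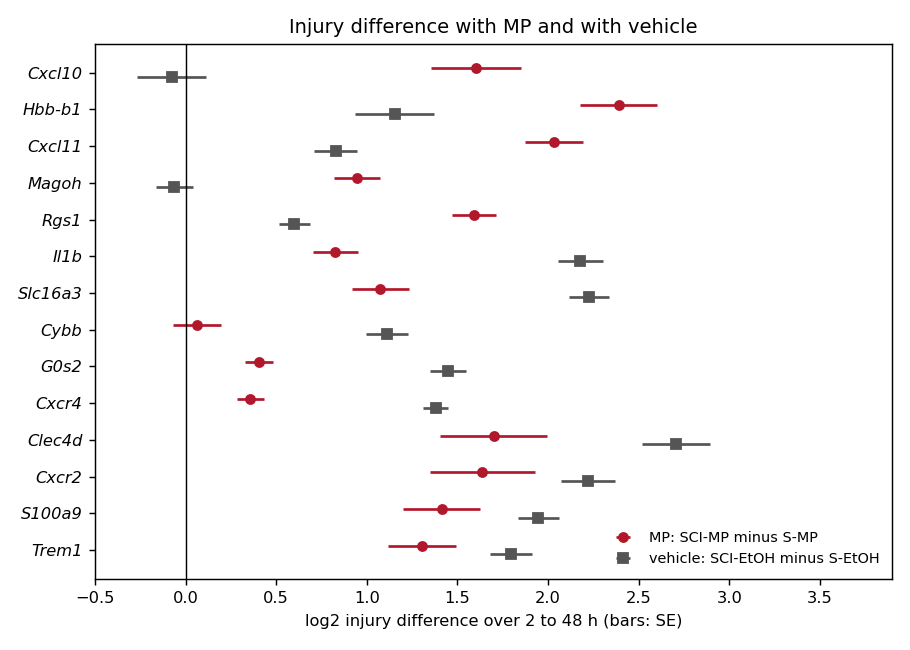
log2 injury difference over 2 to 48 h (horizontal axis, bars are SE) with MP (circles, SCI-MP minus S-MP) and with vehicle (squares, SCI-EtOH minus S-EtOH), 14 arrays a side in each, for the 10 genes with the largest difference between medications and 4 neutrophil markers. Cxcl10 lies at 1.60 with MP and −0.08 with vehicle, and Il1b at 0.83 and 2.18.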

How the data were processed

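Gene expression in spinal cord was measured on Affymetrix rat gene arrays, 1 rat per array. The values deposited are log2 expression values, which the authors made by RMA summarization followed by normalization per chip and per gene. The reference for the centring of each probe set is not stated in any source used, so no level, detection limit or depth could be derived, and the number of arrays limits the precision. Of 27342 probe sets, 15097 carried 1 gene symbol, 323 several and 11922 none, and the mean per symbol gave 14324 genes, 499 of them from several probe sets.

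Groups came from the sample labels. The 28 arrays with MP were fitted in limma 3.58.1 (R 4.3.3) with time as a factor plus injury (20 residual degrees of freedom). Single times, the late minus early difference and the F test used 14 group means (14 degrees of freedom), and injury by medication used 56 arrays (28 degrees of freedom). Benjamini-Hochberg adjustment ran over all 14324 genes at a threshold of 0.05, and 2-fold means a log2 difference of at least 1. The fits were tested on simulated data. The members, the 50 lists and the motifs were chosen with earlier results of these data known, so the lists carry no test of their own. Of 868 listed members 751 were measured. Genes named were the 10 largest rises and 10 largest falls over all times with 1 sign at all 7 times, the 5 largest each way at 2 h, for late minus early and for injury by medication, and the 4 largest called members of each list, or those of smallest adjusted p where fewer were called, with some left out for length. Replicate numbers were not said to mark shared animals or days. The labels call the rats of a group biological duplicates and name no batch. Alternatives were quantile normalization, array medians set to 0, array weights, a robust prior, a plain linear model, probe sets in place of genes, a replicate block, all 60 arrays, 1 mean per injury state and time, other fold limits, adjustment over the 7 times together, and leaving out each time or array.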

Additional observations from a re-analysis of the deposited data

Results flagged for a closer look

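The injury difference with MP differed between times, tested as late minus early or by an F test of injury by time, in many genes: late minus early was positive in 2365 and negative in 1260, and the F test called 2471. Among the genes named, the late minus early difference on the log2 scale was positive in Gldn (2.555), Angpt2 (2.554), Lilrb4 (2.49), Trh (2.41), Fkbp5 (2.32), Esm1 (2.14), Il1r2 (2.00), Mt1 (1.86), Clec4d (1.79), Gal (1.70), Hmox1 (1.70), Tgm2 (1.61), Errfi1 (1.59), Plin2 (1.54), Fcgr2b (1.54) and Cdkn1a (1.535). It was negative in Slco1c1 (−2.96), Slco1a4 (−2.55), Rgs5 (−2.03), Itm2a (−1.915), Gpr17 (−1.865), Htr2c (−1.83), Syt2 (−1.65), Nefm (−1.63), Glra1 (−1.61), Scn1a (−1.55) and Cplx1 (−1.53).

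The injury difference also differed between the medications by the interaction term, positively in 721 genes and negatively in 2703. With MP minus vehicle as the direction, the named genes were positive in Cxcl10 (1.68), Hbb-b1 (1.235), Cxcl11 (1.20), Magoh (1.01), Rgs1 (0.99) and Adm (0.84). They were negative in Il1b (−1.35), Slc16a3 (−1.15), Cybb (−1.05), G0s2 (−1.04), Cxcr4 (−1.02), Clec4d (−1.01), Nos2 (−0.9952), Itgb2 (−0.79), Tlr2 (−0.70), Slco1c1 (−0.66), Pim1 (−0.64), Cxcr2 (−0.58), Itm2a (−0.56), Abcg1 (−0.55), S100a9 (−0.53) and Plaur (−0.51).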

How the results depend on the processing

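No called difference of a named gene changed sign under any alternative that was run, while the balance of higher and lower calls did move. Counts moved by over 1.5 times, with the cause not tested, in these cases. Quantile normalization gave 667 genes at 2 h in place of 85, 2642 at 48 h in place of 4667, 686 by the F test in place of 2471 and 1393 late minus early in place of 3625. Array weights gave 3314 at 8 h in place of 2191, and a plain linear model 40 at 2 h and 1638 by the F test. With all 60 arrays 232 were called at 2 h, and 832 with adjustment over the 7 times together. Testing all probe sets, which are more in number, gave 13582 over all times, 8509 at 6 h, 7753 at 12 h, 7208 at 48 h and 7438 for injury by medication, with 6735 higher and 6847 lower over all times (49.6% higher against 39.2%). Fold limits of 0.5 and 2 on the log2 scale gave 2142 and 32 genes in place of 511, and at the limit of 2 the balance turned to 21 higher and 11 lower (65.6% higher against 35.0%). Leaving out 1 array gave ranges of 8 to 263 at 2 h, 289 to 2731 at 4 h, 2741 to 5232 at 6 h, 690 to 2538 at 8 h, 2319 to 3951 at 24 h and 3096 to 4845 at 48 h. Same-numbered rats of the injured and sham groups deviated together at correlations between −0.0138 and 0.22 over the 7 times, so the numbers were not taken to pair them, and a replicate block gave 43 calls at 2 h. Of 220 tests of named genes, quantile normalization lost 4 calls (Csf1r, RT1-DMa, Slco1c1 and Prx), array weights 2, the plain model 6 and the block 6. With 2 rats per group and time, the single times are the least precise results.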

Other observations

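Of all genes 20.7% were higher and 32.1% lower over all times, and the lists below are to be read against these shares. Of 13 core clock genes 4 were higher and 6 lower (median −0.29). Dbp and Tef, output factors driven by the clock, fell by 0.72 and 0.68, and the repressor Cry2 fell by 0.60, while the activator Bmal1 and the repressor Per1, itself a glucocorticoid target, rose by 0.44 and 0.45. Of 17 spinal neuropeptide genes 4 were higher and 4 lower (median 0.01), with Npy, neuropeptide Y, at 1.53 and Calca, which encodes calcitonin gene-related peptide, at −0.62.

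Sterol synthesis genes were lower in 10 of 13 and higher in 1, Idi1 at 0.45 (median −0.37), with Dhcr7, the last enzyme of cholesterol synthesis, at −0.64. Lipid efflux and storage genes were higher in 7 of 16 and lower in 5 (median 0.06), with Plin2, a lipid droplet coat protein, at 1.33 and the exporter Abcg1 at −0.67. Lysosome genes were higher in 6 of 17 and lower in 5 (median −0.04), and the lower shares of the lysosome, lipid and neuropeptide lists lay near or below that of all genes. Among the lysosome genes were the cathepsin Ctsk at 1.21 and the proton pump subunit Atp6v0d1 at −0.66. Of 8 metallothioneins and zinc transporters 3 were higher and 2 lower: Mt1 rose by 0.67, while Mt3, the brain metallothionein, and Slc30a3, the zinc transporter of synaptic vesicles, fell by 0.59 and 0.64.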
